A study of Homo sapiens with 14 samples.

Results

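BRCA1, BRCA2, FANCD2, FANCI, BLM, RAD54L and MSH6 are genes of homologous recombination, DNA crosslink repair and mismatch repair that low oxygen is known to repress in cancer cells. They were followed here in a gastric carcinoma line under treatments that the study used to start epithelial-mesenchymal transition (EMT), beside untreated cells. Whether EMT had taken place on each array was not tested here. The 7 genes were chosen by name and looked up by symbol in the array annotation. A probe set with 1 gene name was found for 5 of them (BRCA1, FANCI, BLM, RAD54L and MSH6, 1 probe set each), of 18417 genes in all. In RefSeq (GRCh38.p14) BRCA1 lies at chr17:43044295-43170327, FANCI at chr15:89243979-89317259, BLM at chr15:90717346-90816166, RAD54L at chr1:46247688-46278473 and MSH6 at chr2:47783145-47810101. BRCA2 and FANCD2 matched no such probe set and were not analysed here. All 5 measured genes were among the 11050 genes that passed the filter on dim signal, a mean log2 signal of at least 5.90 over the arrays.

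RNA was hybridised to 14 GeneChip Human Gene 1.0 ST arrays, 1 per condition. The 8 treated arrays of parental cells (named MKN28 in the labels and MKN74 in the study's text) came from hypoxia at 1% O2 for 1 or 2 days and from 10 ng/ml TGFb for 1 or 2 days, each with and without knockdown of ANGPTL4, a secreted regulator of lipid metabolism. Their control was 1 array of untreated parental cells at day 2. The 4 treated arrays of Snai1ER cells, a derivative that carries a Snai1-ER transgene whose product 4-hydroxytamoxifen (4-OHT) activates, came from 20 ng/ml 4-OHT for 2 or 4 days, again with and without knockdown. Their control was 1 array of untreated Snai1ER cells at day 4. The study describes small interfering RNA against ANGPTL4 in the parental line and a doxycycline-inducible short hairpin in the Snai1ER line, and neither untreated array has a knockdown partner. With 1 array per condition, a difference between 2 conditions has no replicate check, and precision is limited by how few arrays there are. The deposited values are log2 signals, so a difference of 1 is a doubling. A gene is said here to have risen or fallen in a comparison of conditions when it changed at least 1.5-fold (0.585 on the log2 scale) in the same direction at both times. That is a rule of size and not a test.

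Homologous recombination repairs double-strand breaks by copying an intact sister chromatid, and it works mainly in S and G2 phase. BRCA1 is recruited to breaks and promotes end resection. RAD54L is a DNA translocase that acts during strand invasion. BLM is the RecQ helicase that dissolves joined DNA molecules so that they do not end in crossovers. FANCI forms, with FANCD2, the clamp that is ubiquitinated on DNA at interstrand crosslinks. MSH6 recognises single-base mismatches and small loops left by replication. Many of these genes are transcribed as cells enter S phase, under E2F factors and the DREAM complex.

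The promoters are shown because the factors of S-phase transcription are known to act through such short elements near the start. RefSeq windows (GRCh38.p14, 250 bases before to 50 after a transcript start) were found for 4 of the 5 measured genes, in 9 windows, some of which overlap. Both strands were searched for 4 spellings of an E2F core (TTCCCGC, then TTCGCGC, then TTGCCGC and then TTGGCGC), and 8 of the 9 windows held at least 1, against 13% of the 35116 windows of all genes. The 250 bases before the start of BLM and of BRCA1 are printed 5′ to 3′ on the coding strand, with E2F cores and CCAAT boxes (CCAAT or its complement ATTGG) in capitals. The 30 bases around the E2F core of RAD54L and of MSH6, with that core in capitals, follow them.
BLM, chr15:90717096-90717345, plus strand: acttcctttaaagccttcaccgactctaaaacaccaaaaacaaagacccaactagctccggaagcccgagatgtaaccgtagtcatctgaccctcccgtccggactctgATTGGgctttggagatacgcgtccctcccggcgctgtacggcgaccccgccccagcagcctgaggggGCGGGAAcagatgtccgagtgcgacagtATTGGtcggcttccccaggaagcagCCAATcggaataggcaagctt
BRCA1, chr17:43125365-43125614, minus strand: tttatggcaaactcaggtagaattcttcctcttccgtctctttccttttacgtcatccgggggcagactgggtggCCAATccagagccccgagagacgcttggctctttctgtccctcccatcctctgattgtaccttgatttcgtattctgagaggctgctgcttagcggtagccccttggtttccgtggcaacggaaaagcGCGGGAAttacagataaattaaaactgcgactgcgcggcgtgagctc
RAD54L, chr1:46247628-46247657, plus strand: gcgcagcactaTTCCCGCctcttccttggg
MSH6, chr2:47783138-47783167, plus strand: tccccccagatTTCCCGCcagcaggagccg

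BLM held 3 E2F cores, which began 74 bases before the start and at bases 4 and 23 of the transcript. It also held 3 CCAAT boxes, 141, 46 and 21 bases before the start. The E2F core of BRCA1 began 47 bases before the start in 1 of its 2 windows, and that of RAD54L 49 bases before the first of its 2 starts. For MSH6, each of 4 windows held 1, and the one shown began at base 5 of the most upstream transcript. CCAAT boxes were found in 5 of the 9 windows, against 34.6% of all windows. The cell cycle homology element of DREAM targets (TTTGAA or TTCGAA) was found in 0 of the 9, against 16.4% of all windows. The core of the hypoxia response element (ACGTG or GCGTG) was found in 4 of the 9, against 48.4% of all windows, and in none of BLM. These are matches of letters and not binding sites, and overlapping windows of a gene share some of them.

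Across the 14 arrays MSH6 was the most evenly expressed of the 5 and BRCA1 the least. MSH6 lay between 10.02 (hypoxia day 2 with knockdown) and 11.04 (4-OHT day 2). BRCA1 lay between 6.38 (hypoxia day 1 with knockdown) and 9.38 (4-OHT day 4 with knockdown). The lowest value of BRCA1, FANCI (7.40) and BLM (8.06) was on the same array, hypoxia day 1 with knockdown, and that of RAD54L (6.09) on hypoxia day 2 with knockdown. That day 1 array stood apart in general: the SD of its genes around the mean of the other arrays was 0.69, against 0.27 to 0.56 for the other 13. Another feature of the whole series touches the TGFb results. The 2 TGFb arrays without knockdown had medians of 5.19 and 5.23, below the 5.997 to 6.16 of the other 12, so TGFb results of the 5 genes are also given after quantile normalization, which makes the 14 distributions equal. SNAI1, the transgene of the derivative line, measured 8.80 to 9.85 on its 5 arrays and 4.76 to 6.19 on the 9 parental arrays. The ANGPTL4 probe set lay below the filter and cannot check the knockdown. All 7 epithelial markers passed the filter (7.12 to 12.2 over all arrays), and 2 of 8 measured markers of blood, endothelial and stromal cells did.

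**Figure D1:**
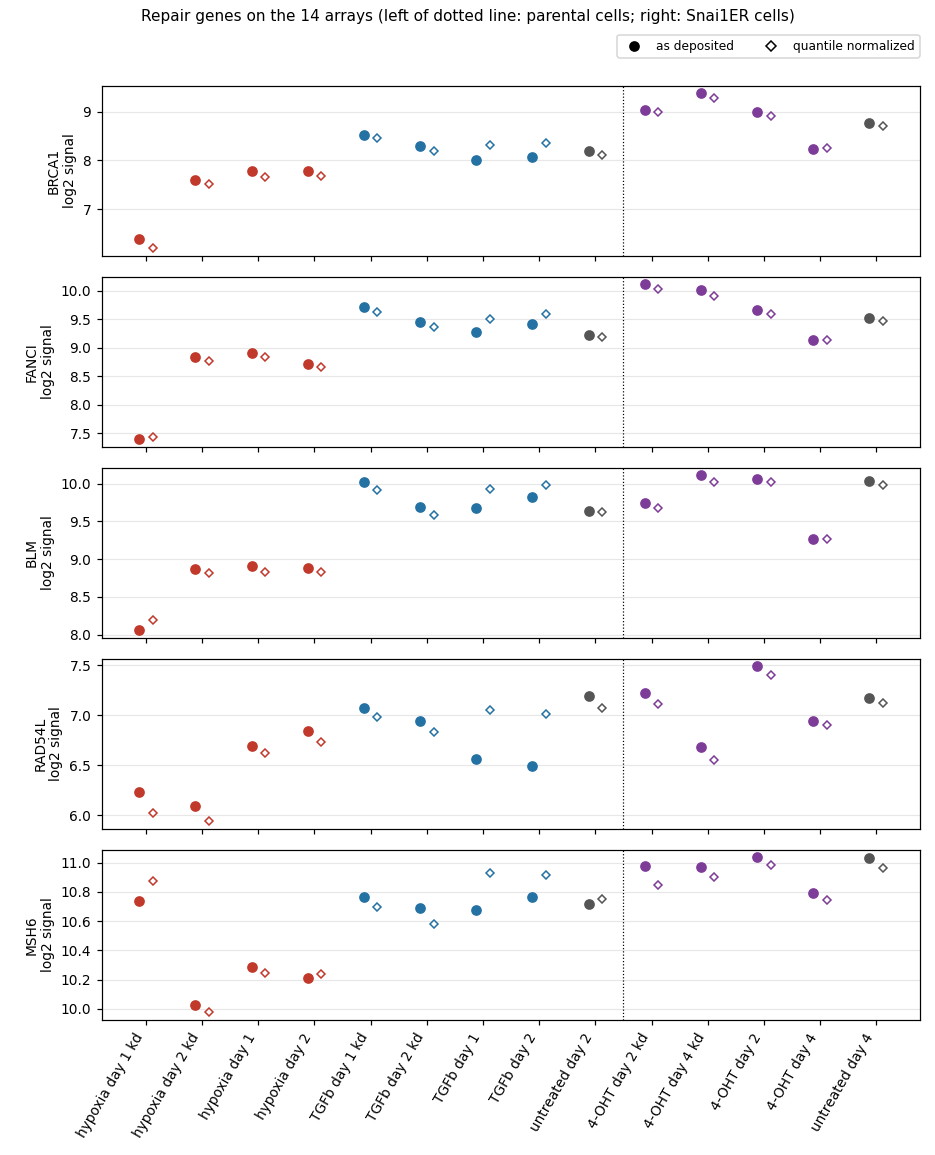
Log2 signal of the 5 measured repair genes on each of the 14 arrays (1 point per array and scale, kd is ANGPTL4 knockdown), as deposited (filled circles) and after quantile normalization (open diamonds). For BRCA1, FANCI and BLM the 4 hypoxia arrays sit below the 4 TGFb arrays and the untreated array.

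Under hypoxia without knockdown the 5 genes measured lower together. All 5 lay below untreated cells on both days, against 40.3% of all genes, with differences from untreated cells between -0.30 and -0.76. BLM alone passed the size rule: it measured 8.90 on day 1 and 8.88 on day 2 of hypoxia, against 9.63 in untreated cells. Its level was 1.66-fold lower on day 1 and 1.69-fold lower on day 2, and the same rule was passed in this direction by 1.71% of all genes. The other 4 genes were lower by less than 1.5-fold. BRCA1 measured 7.78 on each day of hypoxia, against 8.19 in untreated cells, a difference of -0.42 and -0.41. FANCI measured 8.91 and 8.71 under hypoxia, against 9.22, and its difference was -0.30 on day 1 and -0.51 on day 2. The day 1 and day 2 arrays thus gave near-equal values for BRCA1 and BLM.
RAD54L measured 6.70 and 6.85 under hypoxia, against 7.19 untreated, and MSH6 measured 10.28 and 10.21, against 10.72. Both genes were below the untreated array at each time. The median difference of the 5 genes was -0.43 on day 1 and -0.51 on day 2, beside -0.03 and -0.01 over all genes tested. The same 1 gene was called after quantile normalization and after centring each array on its median. The 2 days share the untreated array, so they are not independent of each other, and that array was taken at day 2. In these bulk samples, fewer cells in a phase that uses a gene and less of its RNA per cell cannot be told apart.

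Under hypoxia with ANGPTL4 knockdown all 5 genes were below untreated cells on day 2, and all but MSH6 were below them on day 1. Of all genes, 4006 of 11050 were lower on both days, with medians of -0.13 on day 1 and -0.04 on day 2. Set against untreated cells, BRCA1, BLM and RAD54L fell by the size rule (3 of 5, against 6.29% of all genes). BRCA1 measured 6.38 on day 1 and 7.60 on day 2 with knockdown, against 8.19 in untreated cells, differences of -1.81 and -0.60. Its call lay at the limit of the rule: on day 2 it was 1.51-fold lower as deposited and 1.5-fold lower after quantile normalization. BLM measured 8.06 and 8.88, against 9.63, differences of -1.58 and -0.76. RAD54L measured 6.23 and 6.09, against 7.19, and at -0.96 and -1.10 it had the largest day 2 difference of the 5. Both of its signals with knockdown were near the filter level of 5.90, and 6.09 was also the median of the day 2 array.
FANCI measured 7.40 on day 1 and 8.84 on day 2 with knockdown, against 9.22 untreated, so its difference of -1.82 on day 1 was followed by -0.38 on day 2. MSH6 went the other way in time: it measured 10.74 on day 1 and 10.02 on day 2, against 10.72, differences of 0.02 and -0.69. On day 2 alone, without the array that stood apart, 4 of the 5 genes were at least 1.5-fold lower than in untreated cells (all but FANCI), against 13.2% of all genes.

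TGFb gave a direction that depended on the scale. As deposited, RAD54L fell: it measured 6.56 on day 1 and 6.49 on day 2, against 7.19 in untreated cells, differences of -0.63 and -0.70. The same call was made for 32.3% of all genes, and the median of all genes was itself -0.45 on day 1 and -0.47 on day 2. The other 4 genes differed from the untreated array by -0.19 to 0.21 as deposited. BRCA1 measured 8.003 and 8.08 under TGFb, against 8.19, and FANCI measured 9.28 and 9.43, against 9.22. BLM measured 9.68 and 9.82, against 9.63, and MSH6 measured 10.68 and 10.76, against 10.72. None of these 4 moved as far as the median gene on this scale.
After quantile normalization no member was called (3.27% of all genes fell), and RAD54L differed by -0.02 and -0.06. BRCA1, FANCI, BLM and MSH6 then measured 0.16 to 0.41 higher on both days, a pattern shared by 43.6% of all genes. With each array centred on its median those 4 genes rose by the size rule, as did 22.5% of all genes, whose median on this scale was 0.35, and RAD54L was 0.15 higher as a mean of both days. With knockdown the TGFb arrays had medians like the rest. There BRCA1 measured 8.53 on day 1 and 8.29 on day 2 (0.33 and 0.09 above untreated cells), FANCI 9.72 and 9.46 (0.50 and 0.24 above), and BLM 10.02 and 9.69 (0.39 and 0.05 above). RAD54L measured 7.08 and 6.95 (-0.11 and -0.25) and MSH6 10.77 and 10.69 (0.05 and -0.02). Each difference was under 1.5-fold. After quantile normalization the differences ran from -0.24 (RAD54L, day 2) to 0.44 (FANCI, day 1), and BLM on day 2 (-0.04) and MSH6 on day 1 (-0.06) turned sign.
Of all genes called under TGFb, 98.6% fell as deposited, against 56.9% after quantile normalization and 7.64% after centring.

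**Figure D2:**
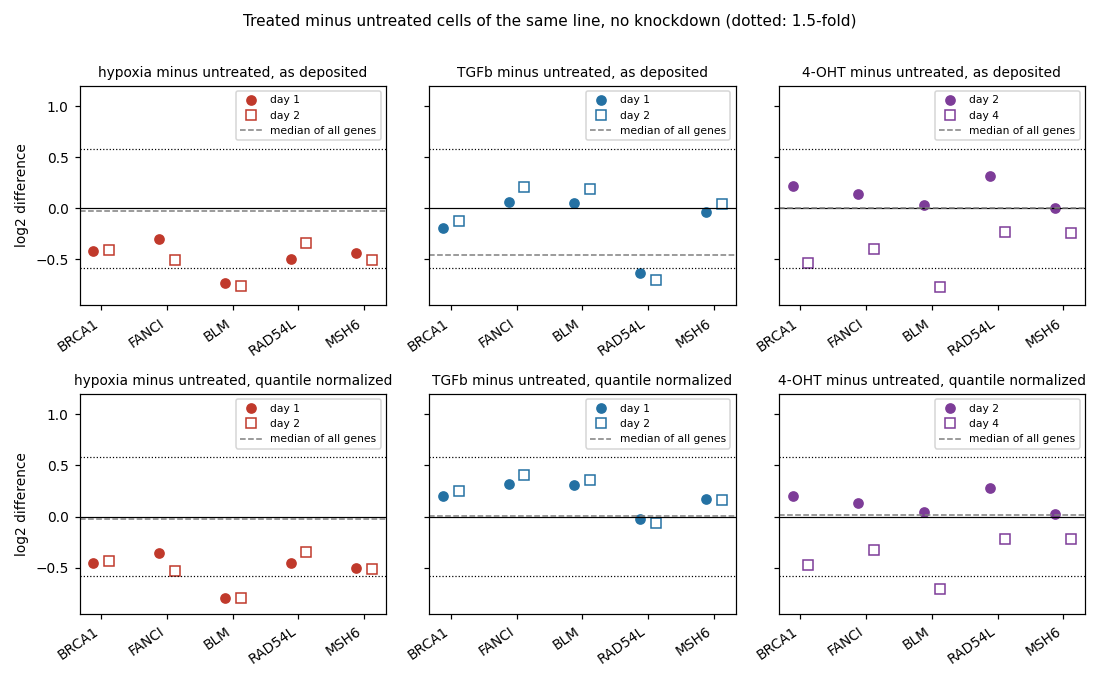
Log2 difference of treated minus untreated cells of the same line for each of the 5 genes, at the earlier time (filled) and the later time (open), as deposited (upper row) and after quantile normalization (lower row). Dashed lines give the median of all genes and dotted lines a 1.5-fold change; the 10 hypoxia points lie below 0 on both scales, and the TGFb points shift with the scale.

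In Snai1ER cells the 5 genes had opposite signs on the 2 days of 4-OHT. All 5 measured higher on day 2 and lower on day 4 than in untreated Snai1ER cells, as did 20.9% of all genes, and none was called at both days (3.48% of all genes were). The day 2 differences were 0.0026 for MSH6, 0.03 for BLM, 0.14 for FANCI, 0.22 for BRCA1 and 0.31 for RAD54L. For MSH6 and BLM the day 2 sign thus rests on values near 0. BLM measured 10.06 on day 2 and 9.26 on day 4, against 10.03 untreated. Its difference of -0.77 on day 4 passed 1.5-fold, as did a day 4 decrease for 11.5% of all genes. BRCA1 measured 8.99 on day 2 and 8.24 on day 4, against 8.77, and FANCI measured 9.67 and 9.13, against 9.53. Both were highest at day 2 and lowest at day 4.
RAD54L measured 7.49 on day 2 and 6.94 on day 4, against 7.18, and MSH6 measured 11.04 and 10.79, against 11.03. With knockdown, BRCA1 measured 9.04 on day 2 and 9.38 on day 4, FANCI 10.12 and 10.02, and BLM 9.74 and 10.11, so the day 4 values lay above those of untreated Snai1ER cells by 0.61, 0.49 and 0.08. RAD54L measured 7.22 and 6.68 with knockdown, and MSH6 10.98 and 10.97. The day 2 array is compared with an untreated array of day 4. Untreated Snai1ER cells were 0.58 higher than untreated parental cells in BRCA1, 0.40 in BLM, 0.31 in FANCI and 0.32 in MSH6, and differed by -0.01 in RAD54L, beside a median of 0.02 over all genes. The line and the day of these 2 arrays cannot be told apart.

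A test over arrays was possible for hypoxia against TGFb, in 4 pairs matched on day and knockdown (limma, with the pair as a block). BLM was lower under hypoxia than under TGFb in all 4 pairs. Its level was 8.68 ± 0.41 under hypoxia and 9.80 ± 0.16 under TGFb (SD, n = 4 each). The difference was -1.12 (SE 0.26, 95% interval -1.70 to -0.55, limma adjusted p = 0.0477), and 0.462% of all genes were called lower. After quantile normalization the difference was -1.19 (SE 0.18, adjusted p = 0.039), where 1.53% of all genes were called lower. The call lay near the threshold: as deposited, its adjusted p was 0.0332 without the day 1 knockdown pair and 0.224 without the day 2 knockdown pair, and it ranged from 0.0151 to 0.224 over the 12 settings run. After quantile normalization, leaving out single pairs gave adjusted p from 0.00405 to 0.229.
FANCI and BRCA1 were also lower under hypoxia in all 4 pairs without passing the threshold. FANCI had 8.47 ± 0.72 under hypoxia and 9.47 ± 0.18 under TGFb, a difference of -1.01 (SE 0.31, adjusted p = 0.12), and of -1.10 after quantile normalization (adjusted p = 0.096). BRCA1 had 7.38 ± 0.67 under hypoxia and 8.22 ± 0.24 under TGFb, a difference of -0.84 (SE 0.31, adjusted p = 0.176), and of -1.07 after quantile normalization (adjusted p = 0.118). For both, the day 1 knockdown pair held the largest gap, -2.32 for FANCI and -2.15 for BRCA1, against -0.23 to -0.71 in the other 3 pairs of the 2 genes. Without that pair the estimate was -0.57 for FANCI and -0.40 for BRCA1.
For RAD54L the difference was -0.30 (SE 0.27, adjusted p = 0.516) as deposited and -0.64 (SE 0.17, adjusted p = 0.103) after quantile normalization. MSH6 differed by -0.41 (SE 0.23, adjusted p = 0.318), with the interval from -0.92 to 0.10, and by -0.45 after quantile normalization (adjusted p = 0.243). Every hypoxia array lay below every TGFb array for BRCA1, FANCI and BLM as deposited, a separation shown by 4.66% of all genes, and also for RAD54L after quantile normalization, where 8.91% of all genes showed it. BRCA1, for example, spanned 6.38 to 7.78 under hypoxia and 8.003 to 8.53 under TGFb. The median difference of the 5 genes was -0.84, beside 0.22 over all genes. It was -1.07 after quantile normalization, beside -0.01 over all genes.

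**Figure D3:**
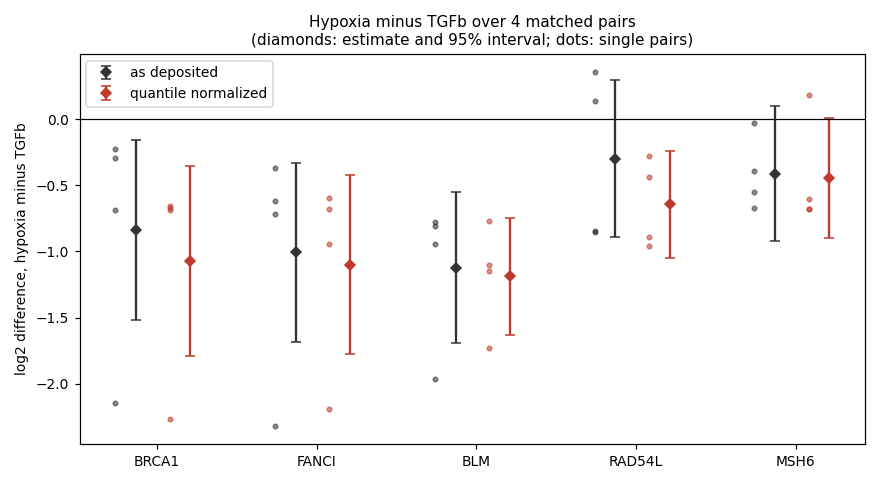
Hypoxia minus TGFb, in log2 units, for each of the 5 genes over 4 pairs matched on day and knockdown (dots are single pairs, diamonds the limma estimate with its 95% interval), as deposited (black) and after quantile normalization (red). As deposited, the interval lies wholly below 0 for BLM (-1.70 to -0.55), FANCI (-1.68 to -0.33) and BRCA1 (-1.52 to -0.16). After quantile normalization it does so for these genes and for RAD54L (-1.05 to -0.24). The intervals are not adjusted for the number of genes tested, and only BLM passed the adjusted threshold on these scales. The lowest dot of BRCA1, FANCI and BLM is the day 1 knockdown pair.

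Knockdown of ANGPTL4 within a treatment moved no member at least 1.5-fold on both days as deposited. The same rule called 4.45% of all genes under hypoxia, 28.3% under TGFb and 9.15% under 4-OHT. After quantile normalization the share under TGFb was 5.84%, and the differences of the 5 genes there ran from -0.40 to 0.16. Over the 6 pairs, limma called 14 genes (0.127%) and none of the 5, with estimates from -0.13 for RAD54L to 0.07 for FANCI and SEs of 0.17 to 0.27. At an unadjusted p under 0.05, 1843 of all genes and 0 of the 5 passed. The 95% interval of BRCA1 ran from -0.51 to 0.63.
Single pairs showed larger values. On day 1 of hypoxia BRCA1 was 1.39 below its partner (6.38 with knockdown, against 7.78 without), FANCI 1.52 below (7.40, against 8.91) and BLM 0.85 below (8.06, against 8.90). On that array, the one that stood apart, 26% of all genes were at least 1.5-fold lower than in its partner. On day 2 the same 3 genes differed by -0.19, 0.13 and -0.0021.
On day 4 of 4-OHT the same 3 genes measured higher with knockdown: BRCA1 by 1.14 (9.38, against 8.24), FANCI by 0.88 (10.02, against 9.13) and BLM by 0.85 (10.11, against 9.26). A rise of at least 1.5-fold on day 4 was seen for 15.5% of all genes. On day 2 of 4-OHT they differed by 0.04, 0.45 and -0.33. Under 4-OHT, 74% of the genes called on both days fell, against 84.2% with arrays centred on their medians.
RAD54L, which was near the filter level on the hypoxia arrays with knockdown, had a pattern of its own. Under hypoxia it was lower with knockdown on both days, by 0.46 (6.23, against 6.70) and by 0.76 (6.09, against 6.85), and it was called after quantile normalization (-0.60 and -0.79), where 3.76% of all genes fell. Under 4-OHT its knockdown differences were -0.27 and -0.26. Under TGFb they were 0.52 and 0.46 as deposited but -0.07 and -0.18 after quantile normalization, with the partner arrays those of low median. Of all genes called with knockdown under TGFb, 2.65% fell as deposited, against 76.7% after quantile normalization and 97.4% after centring. After quantile normalization the fitted difference of RAD54L was -0.38 (SE 0.13, limma adjusted p = 0.18), beside a median of -0.06 over all genes. On that scale limma called 87 genes lower and 10 higher. RAD54L was lower in 6 of 6 pairs, and how many of all genes were so was not counted. Centred arrays gave -0.48 with an adjusted p of 0.0453, on a scale where the median of all genes was -0.23.
As deposited, MSH6 stayed between -0.18 and 0.18 in 5 of the 6 pairs and was 0.45 higher with knockdown on day 1 of hypoxia. After quantile normalization that difference was 0.63, past 1.5-fold on that day alone, and the other 5 pairs ran from -0.33 to 0.16.

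**Figure D4:**
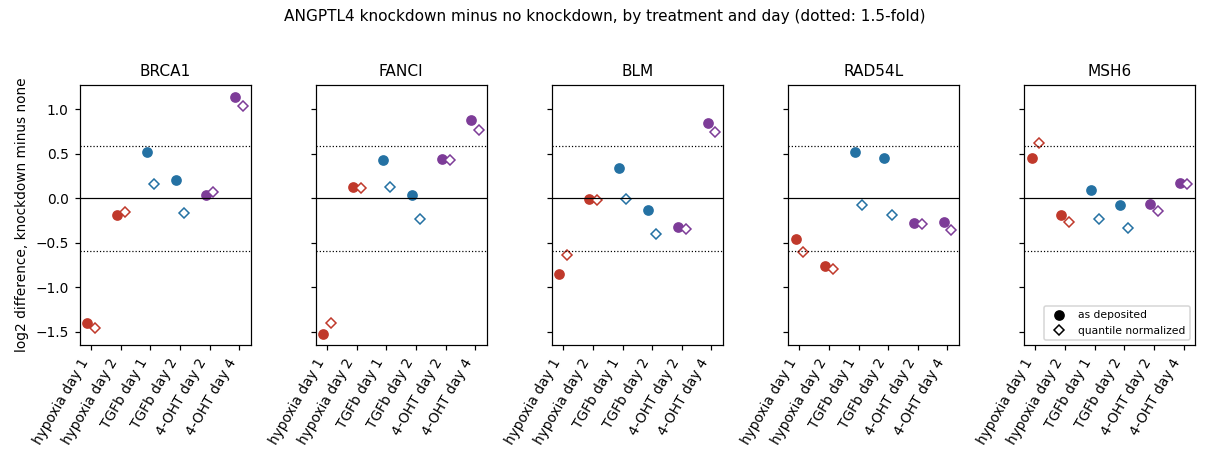
Log2 difference of ANGPTL4 knockdown minus no knockdown for each gene in the 6 pairs of treatment and day, as deposited (filled circles) and after quantile normalization (open diamonds), with dotted lines at 1.5-fold. BRCA1, FANCI and BLM lie lowest on day 1 of hypoxia (-1.39, -1.52 and -0.85) and highest on day 4 of 4-OHT (1.14, 0.88 and 0.85).

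Time alone gave no call. The later array was set against the earlier one in 6 pairs matched on treatment and knockdown, and limma called 0 of 11050 genes (0%), with 152 genes and 0 of the 5 at an unadjusted p under 0.05. The estimates of the 5 genes ran from -0.21 for RAD54L to 0.11 for BRCA1. Within single pairs, all 5 were lower at the later time under 4-OHT without knockdown, by 0.25 (MSH6) to 0.80 (BLM). That pair is the day 2 and day 4 arrays described above, and the share of all genes lower in it was not counted. Under hypoxia with knockdown FANCI was 1.44 higher and BRCA1 1.22 higher on day 2 than on the day 1 array that stood apart.

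BRCA1, FANCI and BLM followed one another over the arrays. Pearson's r over the 14 arrays, as a description of arrays that share controls and treatments, was 0.96 for BRCA1 with FANCI, 0.90 for BRCA1 with BLM and 0.92 for FANCI with BLM. RAD54L correlated less, at 0.60 to 0.68 with those 3. Over the 13 arrays without hypoxia day 1 with knockdown, these values were lower. They were 0.91 for BRCA1 with FANCI, 0.81 for BRCA1 with BLM, 0.86 for FANCI with BLM, and 0.46 to 0.59 for RAD54L with those 3. MSH6 had r = 0.58 with BRCA1 over 14 arrays and 0.86 over the 13 without hypoxia day 1 with knockdown, the array on which MSH6 stayed high while the others were low. The genes whose values were most like the mean of the 5 were SUPT16H, HACD3, CIP2A, BRIP1 and DHX33 as deposited (r = 0.97 each over 14 arrays). BRIP1, MCM10, HACD3, RRM1 and MCCC2 led after quantile normalization (r from 0.96 to 0.97). BRIP1 is a helicase that binds BRCA1, MCM10 a replication initiation factor and RRM1 the large subunit of ribonucleotide reductase.
Beside these stands the level of 29 genes of S phase and proliferation. Their mean log2 signal was 8.16 and 8.09 under hypoxia without knockdown and 7.82 and 7.59 with it, against 8.76 in untreated parental cells. Each of the 5 genes had r = 0.79 to 0.85 with that mean over the 14 arrays. The part of this level in the results of the 5 genes was not tested.

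Among other repair genes, listed without the members, hypoxia moved a minority. The homologous recombination list, as used here, also holds POLQ, an end joining polymerase. Of its 40 genes past the filter, 5 fell and 1 rose (median of the mean difference -0.28, beside -0.02 over all genes). Of all genes, 1.71% fell and 2.94% rose. DNA2, a nuclease and helicase of end resection, measured -0.92 on day 1 and -1.18 on day 2. EXO1, the exonuclease that resects ends and also acts in mismatch repair, measured -0.59 and -1.04. The other 3 that fell were XRCC2, which acts in strand exchange (-0.64 and -0.91), POLQ, the polymerase of theta-mediated end joining (-0.72 and -0.77), and BRIP1 (-0.71 and -0.63). SWI5, a recombination factor, rose by 0.59 and 0.68.
In mismatch repair 3 of 15 fell (median -0.41): EXO1, the clamp loader subunit RFC3 (-0.87 and -1.06) and the sliding clamp PCNA (-0.59 and -0.64). With each array centred on its median, 1 of the 15 fell, and 4 of the 40 homologous recombination genes did. Of the Fanconi anemia genes 1 of 21 fell, the DNA translocase FANCM (-0.67 and -1.02), with a median of -0.12. No gene was called among 15 of non-homologous end joining (median -0.15), 18 of base excision repair (-0.24) and 12 of nucleotide excision repair (-0.09).
The S phase list moved further than any of these repair lists: 15 of 29 genes fell and 0 rose (median -0.65). They included MCM10 (-1.23 and -1.42), the GINS subunit GINS4 (-1.27 and -1.41), the polymerase epsilon subunit POLE2 (-1.19 and -1.40) and the helicase cofactor CDC45 (-0.96 and -1.29). Of 19 E2F and DREAM genes, E2F8, an atypical repressor, fell (-1.15 and -1.06), as did RBL1, a pocket protein (-0.59 and -0.82). The mean signal of the hypoxia target list was 9.05 to 10.00 on the 4 hypoxia arrays, against 8.35 in untreated parental cells, and 7 of its 8 genes past the filter rose.
Under TGFb the repair lists moved with the scale. As deposited, 9 of 40 homologous recombination genes fell, led by XRCC3 (-0.73 and -1.17) and SWSAP1 (-0.76 and -1.03), and 6 of 18 base excision repair genes, led by the glycosylases OGG1 and NTHL1, beside 32.3% of all genes. After quantile normalization 0 of these genes fell, and MRE11, a nuclease of the break sensor complex, rose by 0.83 and 0.97. Under 4-OHT without knockdown, no gene of these 6 repair lists was called, and the S phase list had a median of 0.04 on day 2 and -0.62 on day 4.

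**Figure D5:**
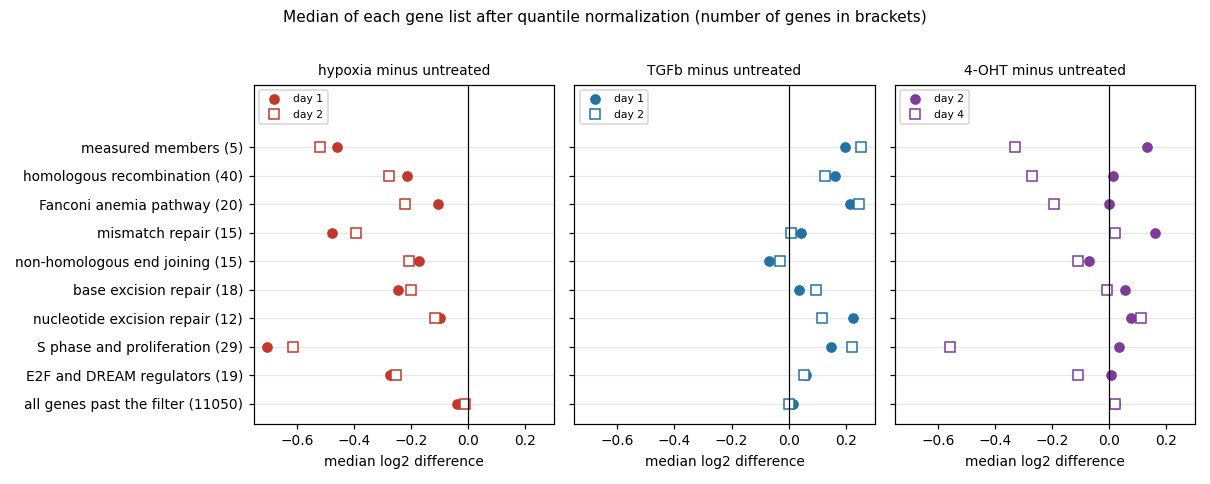
Median log2 difference from untreated cells of each gene list, after quantile normalization, for hypoxia, TGFb and 4-OHT, at the earlier time (filled) and the later time (open), with the number of genes past the filter in brackets. The S phase list lies lowest under hypoxia and on day 4 of 4-OHT, and the 5 measured repair genes lie below the median of all genes in both.

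With ANGPTL4 knocked down under 4-OHT, 4 of 40 other homologous recombination genes were called on both days, 1 of 21 Fanconi anemia genes, 0 of 15 mismatch repair genes, 2 of 15 of end joining, 1 of 18 of base excision repair and 1 of 12 of nucleotide excision repair. These shares stand beside 9.15% of all genes. POLQ, the end joining polymerase on the homologous recombination list, rose by 0.75 on day 2 and 2.58 on day 4, and SWI5 fell (-1.14 and -2.10). RPA2 (-0.84 and -0.92) and RPA3 (-0.86 and -0.86), subunits of the single-strand binding protein, fell together. PRKDC, the DNA-dependent protein kinase catalytic subunit (0.92 and 1.63), and RIF1, a factor that restrains resection (1.29 and 1.72), rose. UBE2T, the enzyme that ubiquitinates FANCD2 and FANCI, fell (-1.13 and -0.98), as did the base excision polymerase POLB (-0.83 and -1.26).
In the paired fit of hypoxia against TGFb, 2 of the 40 homologous recombination genes were called, both lower: EXO1 (-1.19, SE 0.24, limma adjusted p = 0.0273) and XRCC2 (-1.20, SE 0.28, adjusted p = 0.0461). After quantile normalization 5 of 40 were called lower, with GEN1, MCM8 and POLQ beside those 2. RFC3 of the mismatch repair list was called on both scales (-1.10 as deposited, adjusted p = 0.0323). In the S phase list CDC45, GINS2 and MCM10 were called as deposited, 3 of 29, and 7 of 29 after quantile normalization.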

How the data were processed

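Per the labels, RNA was amplified with the NuGEN Applause WT-Amp ST system and hybridised to GeneChip Human Gene 1.0 ST arrays. The deposited log2 values per probe set were made by the authors with RMA in Partek (versions not given in the sources used here). Of 33297 probe sets, 19460 had 1 gene symbol in the platform annotation, updated through gene IDs, and 1754 had several and were left out. Where a gene had several probe sets their mean was used, for 18417 genes in all. Genes with a mean at or above the 40th percentile (log2 5.90) were tested. Differences were taken between single arrays. Paired fits used limma 3.58.1 in R 4.3.3 (lmFit, eBayes) with Benjamini-Hochberg adjustment over 11050 genes and a threshold of 0.05. The fits were tested on simulated data. Pairs of knockdown, time and treatment are matched conditions and not replicates, and nothing in the labels says how cultures were divided, so p-values measure the spread between these arrays. Alternatives were other scalings, filters, the brightest probe set, no block, a variance trend and leaving out each pair. The members and lists were chosen with earlier results of these data known. Genes named are the members, up to 6 called genes of each other list and comparison with the largest mean difference, and the 5 most alike on each scale. GEN1, MCM8 and the genes called in the paired fits were named after their values were seen. Whether the BRCA1 probe set also detects the partial pseudogene BRCA1P1 was not tested.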

Additional observations from a re-analysis of the deposited data

Results flagged for a closer look

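The difference between hypoxia and TGFb was tested for BLM: -1.12 over 4 pairs (limma adjusted p = 0.0477). Against untreated cells BLM measured -0.73 and -0.76 on the 2 days of hypoxia, and 0.05 and 0.19 under TGFb.

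For BRCA1 and RAD54L, both knockdown differences under 1 treatment had the opposite sign to both under another, and the difference between treatments was not tested. BRCA1 had knockdown differences of -1.39 and -0.19 under hypoxia, against 0.53 and 0.21 under TGFb and 0.04 and 1.14 under 4-OHT. Its mean under hypoxia differed from that under TGFb by -1.16 and from that under 4-OHT by -1.39. The signs under hypoxia and 4-OHT stayed opposite after quantile normalization, and those under hypoxia and TGFb did not. RAD54L had knockdown differences of -0.46 and -0.76 under hypoxia and -0.27 and -0.26 under 4-OHT, against 0.52 and 0.46 under TGFb as deposited. Its mean under hypoxia differed from that under TGFb by -1.10, and its mean under TGFb from that under 4-OHT by 0.75. Neither opposition was present after quantile normalization. The parts of the array that stood apart (hypoxia day 1 with knockdown) and of the 2 TGFb arrays of low median in these values were not tested.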

How the results depend on the processing

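With 1 array per condition no single condition has a replicate check, and the paired fits rest on 4 or 6 pairs of different conditions. The hypoxia count of 1 gene (BLM) became 0 at 2-fold and stayed at 1 under every other setting run. The TGFb count of 1 became 4 with arrays centred on their medians, 0 after quantile normalization and 0 at 2-fold. The 4-OHT count of 0 became 1 at the later time alone. The knockdown count within treatments was 0 as deposited, 2 after centring and 1 after quantile normalization. After centring, RAD54L fell under hypoxia, where 586 of 11050 genes fell and 32 rose. MSH6 fell under TGFb, where 2616 of 11050 fell and 70 rose. After quantile normalization RAD54L fell under hypoxia, where 416 of 11050 fell and 74 rose. For hypoxia against TGFb, 1 member was called as deposited, 4 after centring, 0 with the brightest probe set of each gene (BLM adjusted p = 0.0501), 0 with the filter at the median (0.0578), and 0 to 1 without single pairs (0 without the day 2 pair with or without knockdown). After quantile normalization the count without single pairs was 0 to 4, with 4 without the day 1 knockdown pair. How many of all genes were called in these settings was not counted, so the 4 cannot be set beside a share of all genes. These settings were chosen after seeing the data. The hypoxia against TGFb estimates without single pairs ran from -1.04 to -0.40 for BRCA1, -1.22 to -0.57 for FANCI, -1.24 to -0.84 for BLM, -0.52 to -0.12 for RAD54L and -0.54 to -0.33 for MSH6. The knockdown fit called 0 members, 1 after centring (RAD54L). Centring turned RAD54L under TGFb to 0.15. Knockdown estimates of BRCA1, FANCI and MSH6 turned to -0.30, -0.28 and -0.28 after centring and to -0.084, -0.028 and -0.030 after quantile normalization. Without single pairs the knockdown estimates ran from -0.16 to 0.35 for BRCA1, -0.093 to 0.39 for FANCI, -0.19 to 0.15 for BLM, -0.26 to -0.0041 for RAD54L and -0.0086 to 0.12 for MSH6, and after quantile normalization from -0.31 to 0.19 for BRCA1, -0.19 to 0.25 for FANCI and -0.16 to 0.031 for MSH6. Time estimates without single pairs ran from -0.11 to 0.28 for BRCA1, -0.19 to 0.21 for FANCI and -0.13 to 0.19 for BLM, which was -0.014 after quantile normalization. Over all genes the knockdown fit called 14 as deposited, 1191 after centring, 97 after quantile normalization, 35 without a filter, 4 without the block of pairs, 28 with a variance trend and 5 to 41 without single pairs. The hypoxia against TGFb fit called 236 as deposited (185 higher and 51 lower), 1185 after centring (109 and 1076), 280 after quantile normalization (111 and 169), 376 without a filter and 0 to 1143 without single pairs. The median of all genes in that fit was 0.22 as deposited and -0.21 after centring. The causes were not tested. No paired analysis was possible by replicate number because each condition has 1 array.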
